A study of Mus musculus with 4 samples.

Results

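The genes of the basement membrane and of the receptors that bind it were compared between 2 populations sorted from mouse embryonic stem cell (ESC) aggregates. The list holds 39 genes, of the 18194 genes named on the array. It was chosen by known function: 27 genes encode matrix chains and their partners (7 laminin chains, 6 collagen chains, 4 nidogens and proteoglycans, 7 adhesive glycoproteins and matrix partners and 3 members of the Fraser complex), and 12 encode receptors (7 integrin alpha subunits, 4 beta subunits and dystroglycan). All 39 were measured, by 90 of the 45101 probe sets.

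All samples came from a single ESC line that carries an eGFP reporter of Rax, a homeobox gene of the early forebrain and eye field. The cells were reaggregated and kept floating as SFEBq aggregates, without serum and without added growth factors, until day 4.5. The aggregates were then dissociated with TrypLE and sorted into Rax::GFP+ cells, the rostral population, and Rax::GFP- cells, taken as the presumptive caudal one. Each population was hybridized to 2 Affymetrix mouse expression arrays. A sample pools many aggregates of one reporter line, and the GFP- gate takes every cell without the signal, whatever its type. The study asked which genes differ between the rostral and the presumptive caudal cells.

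The values are log2 RMA values (background-corrected, quantile-normalized and summarized per probe set). Differences are GFP- minus GFP+, so that a difference of 1 is a doubling in GFP- cells. They are given with the standard error (SE) from limma and a p-value corrected over the 45101 probe sets of the array (Benjamini-Hochberg). A gene was called at an adjusted p under 0.05, and is represented by its probe set of highest mean. Values of different probe sets do not compare the amounts of different transcripts. With 2 arrays a group, an exact permutation test of a single gene cannot go below p = 0.333, so every call rests on the spread that limma shares between probe sets.

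Rax, the gene of the reporter, stood at 10.70 and 10.86 on the GFP+ arrays and 8.58 and 8.88 on the GFP- arrays and was lower in GFP- cells, as the sort labels have it (difference -2.05, SE 0.13, limma adjusted p = 0.00785). The rostral marker Six3 was lower in GFP- cells (-0.85) and the caudal marker Irx3 higher (2.59). The populations differed in more than rostral or caudal character. Of 8 early neural genes 5 were lower in GFP- cells, while 6 of 8 pluripotency genes were higher there, Nanog by 3.51. Of 14 markers of primitive and definitive endoderm, cells that themselves lay down basement membrane, 9 were higher in GFP- cells, led by Sox17 (3.09), Cubn (2.87), Ttr (2.48) and Amn (2.36), and 1, Foxa1, was lower (-1.41). The summed endoderm level, on the linear RMA scale, was 1353 and 1726 on the GFP+ arrays and 5931 and 6731 on the GFP- arrays. Such a sum is weighted towards the brightest probe sets and does not give a number of cells. RMA gives no value of 0, and 1 of these 14 markers, Cer1, had a mean under log2 5. Of 6 markers of parietal endoderm, the extraembryonic cell that makes a thick basement membrane, only Pth1r passed (1.53). Their summed level was 828 and 799 on the GFP+ arrays and 1193 and 1187 on the GFP- arrays. Of the 6 differences 5 were above 0, and that of Plat, the brightest of the 6 on the GFP+ arrays, was -0.16. Thbd, the only 1 of the 6 with a mean under 5, had a difference of 0.23 (limma adjusted p = 0.313). Of 11 mesoderm and mesenchyme markers Eomes (2.48) and Pdgfra (2.05) were higher, Col1a2 was lower (-2.15) and the other 8 did not pass. None of 8 endothelial and blood markers was called by limma, 4 of them having an unadjusted p under 0.05. Of the 27 matrix genes described next, 8 were higher in GFP- cells and 4 were lower. Beside these counts and those of the markers, 5.40% of all genes were called higher and 2.63% lower. The part of endoderm or pluripotent cells in the matrix differences was not tested. In a sorted bulk sample, fewer cells of a type and less RNA per cell cannot be told apart.

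A basement membrane is a thin sheet of matrix on the basal side of an epithelium, including the neuroepithelium. Laminins, trimers of an alpha, a beta and a gamma chain, assemble on the cell surface into a first network. Collagen IV, a trimer of alpha chains, forms a separate covalently linked network, and nidogens and the proteoglycans perlecan and agrin join the networks. Cells hold on to the sheet through integrins, each made of an alpha and a beta subunit that cross the membrane, and through dystroglycan, which binds laminin by its sugar chains.

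The genes of 2 collagen pairs lie head to head and are shown first, because Col4a1 and Col4a2 were higher in GFP- cells and Col4a5 was lower. Col4a1 and Col4a2 encode the chains of the widespread collagen IV trimer. In the RefSeq annotation of GRCm38.p6, Col4a1 starts on the minus strand at position 11312826 of chromosome 8 and Col4a2 on the plus strand at 11312805, only 21 bases away. By these starts the 2 transcripts overlap by 22 bases, so the bases lie inside both genes and not between them. This shared start region, chr8:11312805-11312826 on the plus strand, is given here with its GC box, the GGGCGG hexamer, in capitals.

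Col4a1-Col4a2 shared start: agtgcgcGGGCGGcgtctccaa

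Col4a6 starts on the minus strand at position 141474076 of chromosome X and Col4a5 on the plus strand at 141475419, 1343 bases away. They encode 2 collagen IV chains that share a trimer in some epithelia.

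The promoters of 4 further members are given as an example of each direction in each class: Nid1 (matrix, higher in GFP- cells), Itgb5 (receptor, higher), Npnt (matrix, lower) and Itgb8 (receptor, lower). Each sequence holds the 250 bases before the start of the gene, 5′ to 3′ on the strand of the gene, from RefSeq and GRCm38.p6. Capitals mark the GC box (GGGCGG, or CCGCCC on the other strand) and the CCAAT box (CCAAT, or ATTGG).

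Nid1 (chr13:13437352-13437601, plus strand): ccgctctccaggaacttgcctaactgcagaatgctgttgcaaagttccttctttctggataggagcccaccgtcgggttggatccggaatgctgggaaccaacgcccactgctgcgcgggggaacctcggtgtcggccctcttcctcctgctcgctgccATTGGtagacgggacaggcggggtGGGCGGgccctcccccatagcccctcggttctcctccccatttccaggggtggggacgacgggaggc
Itgb5 (chr16:33829415-33829664, plus strand): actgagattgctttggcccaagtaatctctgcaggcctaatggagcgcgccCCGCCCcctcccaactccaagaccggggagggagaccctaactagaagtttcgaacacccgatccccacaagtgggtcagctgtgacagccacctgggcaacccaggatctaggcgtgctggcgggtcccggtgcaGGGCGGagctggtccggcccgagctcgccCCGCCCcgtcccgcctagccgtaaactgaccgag
Npnt (chr3:132950292-132950541, minus strand): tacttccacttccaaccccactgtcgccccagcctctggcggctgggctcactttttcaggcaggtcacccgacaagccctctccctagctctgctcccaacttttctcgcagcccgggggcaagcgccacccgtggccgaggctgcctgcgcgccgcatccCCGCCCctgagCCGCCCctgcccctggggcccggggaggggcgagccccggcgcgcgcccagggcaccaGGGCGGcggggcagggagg
Itgb8 (chr12:119238277-119238526, minus strand): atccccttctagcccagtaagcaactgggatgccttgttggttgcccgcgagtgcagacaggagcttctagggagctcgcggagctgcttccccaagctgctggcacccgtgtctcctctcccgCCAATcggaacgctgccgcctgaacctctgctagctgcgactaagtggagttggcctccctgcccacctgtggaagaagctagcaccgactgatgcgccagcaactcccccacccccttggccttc

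Itgb5 and Npnt, which differed in opposite directions, each held 3 GC boxes, and their G and C content was 65.2% and 74.0%. Nid1 held 1 GC box and 1 CCAAT box (64.4% G and C), and Itgb8 held 1 CCAAT box and no GC box (62.4%). A RefSeq promoter was matched for 26 of the 39 genes, with 32 promoters in all. The GC box stood in 19 of these 32 (59.4%) and in 32.7% of all 32851 promoters, and the CCAAT box in 11 (34.4%) and in 33.8%. TATAAA stood in 1 of the 32 (3.12%) and in 12.4% of all promoters. The letters AGATAA, a form of the GATA motif, and ACAATG, a form of the SOX motif, were in none of the 32, and in 9.99% and 10.7% of all promoters. Both strands were read, and these matches describe the letters only.

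Across the list, 11 genes were higher and 5 lower in GFP- cells, and 23 did not pass. Without GFP+ replicate 1 the counts were 1 higher (Col4a1) and 1 lower (Smoc1), without GFP+ replicate 2 they were 7 and 2, and without either GFP- array 0 and 0. Of all genes, 5.40% were called higher and 2.63% lower. The median difference of the 39 genes was 0.22, and that of all genes 0.05. The chains of the laminin trimer of early embryos (Lama1, Lamb1, Lamc1), the paired collagen chains Col4a1 and Col4a2 and both nidogens were higher in GFP- cells. Col4a5, Fn1, Npnt, Smoc1 and Itgb8 were lower there. In 23 genes both GFP- arrays lay above both GFP+ arrays, and in 12 both lay below, where 38.4% and 21.7% of all genes did so. Centring each array on its median, which moves all differences alike, gave 12 higher and 2 lower genes in place of 11 and 5: Col4a5, Fn1 and Npnt no longer passed (adjusted p = 0.0529, 0.0510 and 0.0507) and Itga6 did (0.0475).

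**Figure D1:**
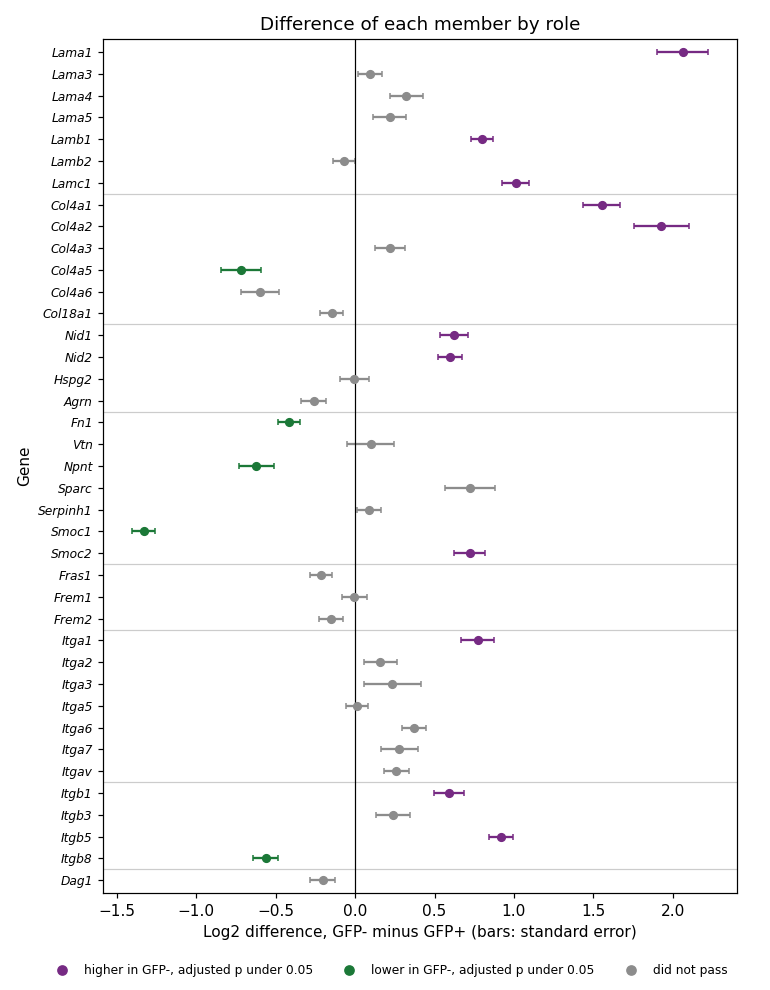
Log2 difference (GFP- minus GFP+, horizontal axis) of the 39 genes, grouped by role (vertical axis), at the probe set of highest mean. Points are the fitted differences from 2 arrays a group, bars their standard errors, purple points passed as higher in GFP- cells and green ones as lower; Lama1 lies farthest to the right at 2.06 and Smoc1 farthest to the left at -1.33.

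Of the 7 laminin chains 3 were higher in GFP- cells, none was lower, and the median difference was 0.32. Lama1, the alpha chain of the laminin that first assembles in the embryo, stood at 7.96 and 8.12 on the GFP+ arrays and 9.90 and 10.31 on the GFP- arrays. Both GFP- arrays lay above both GFP+ arrays, by 2.06 on average (SE 0.16, 95% interval 1.64 to 2.49, 4.18-fold, limma adjusted p = 0.0108), the largest difference of the 39 genes. Lamc1, the gamma chain shared by most laminins, gave 8.47 and 8.44 on the GFP+ arrays and 9.40 and 9.54 on the GFP- arrays. It was 2.01-fold higher (difference 1.01, SE 0.08, adjusted p = 0.0118), and its other probe set gave 1.04 (adjusted p = 0.0259). Lamb1, the beta chain of the same trimer, gave 10.89 and 10.90 on the GFP+ arrays and 11.66 and 11.72 on the GFP- arrays. The groups did not overlap, and Lamb1 was 1.74-fold higher (0.80, SE 0.07, adjusted p = 0.0134). The 3 other probe sets of Lamb1 gave 0.82 (adjusted p = 0.0178), 1.02 (0.0516) and -0.37 (0.284).

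The other alpha chains and the other beta chain did not pass. Lama4, a chain best known from vessels and muscle, was dim, with 4.60 and 4.51 on the GFP+ arrays and 4.98 and 4.77 on the GFP- arrays. Its arrays did not overlap, but the difference of 0.32 (interval 0.05 to 0.60) had an adjusted p of 0.143. Lama5, the alpha chain that becomes prominent in later embryonic epithelia, gave 8.29 and 8.24 on the GFP+ arrays and 8.37 and 8.59 on the GFP- arrays, a difference of 0.22 (interval -0.06 to 0.49, adjusted p = 0.271). Lama3, a chain of stratified epithelia, gave 0.09 (-0.11 to 0.29), and Lamb2, the beta chain of muscle and kidney laminins, -0.07 (-0.26 to 0.12). Without GFP+ replicate 1 none of the 3 laminin calls passed, with adjusted p-values of 0.0509 for Lama1, 0.0532 for Lamc1 and 0.0598 for Lamb1. Without GFP+ replicate 2 all 3 passed (0.0260, 0.0319 and 0.0354). Without either GFP- array no probe set of the whole array passed, so neither these calls nor any given below held there.

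**Figure D2:**
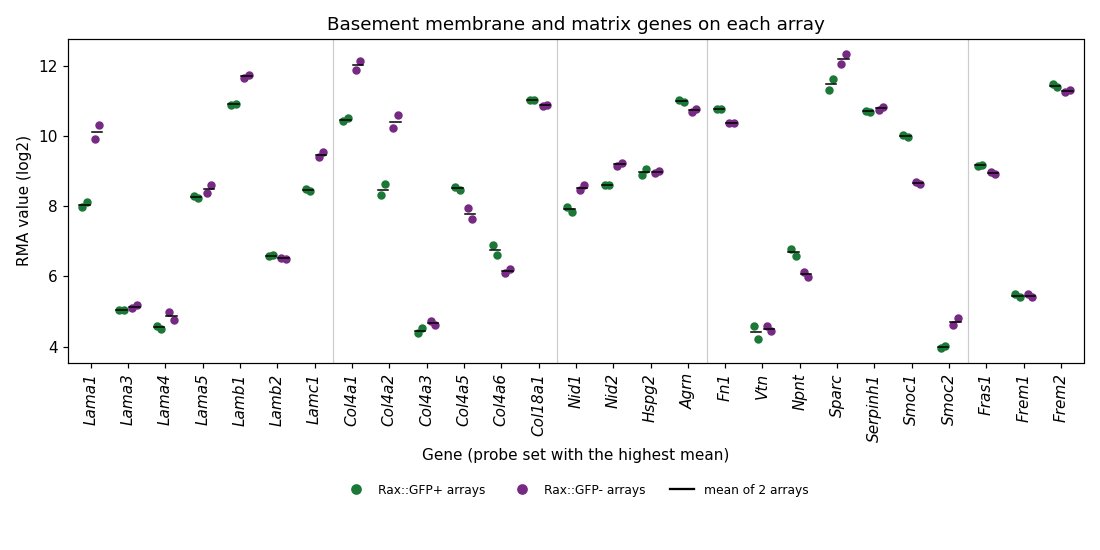
Log2 RMA values (vertical axis) of the 27 matrix genes (horizontal axis, in role order) on each array. Green points are the 2 GFP+ arrays, purple points the 2 GFP- arrays and black lines the group means; Lama1, Col4a1 and Col4a2 have the purple points well above the green ones, and Smoc1 has them below.

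Among the 6 collagen chains 2 rose in GFP- cells and 1 fell, and the median was 0.04. Col4a1 gave 10.41 and 10.51 on the GFP+ arrays and 11.88 and 12.14 on the GFP- arrays. It was 2.93-fold higher (1.55, SE 0.12, adjusted p = 0.00972), and its other probe set gave 1.68 (adjusted p = 0.0126). Col4a2, its partner in the trimer and on the chromosome, gave 8.32 and 8.63 on the GFP+ arrays and 10.22 and 10.58 on the GFP- arrays. It was 3.81-fold higher (1.93, SE 0.17, adjusted p = 0.0134), so both genes of the pair on chromosome 8 were higher, with no overlap between the groups.

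On chromosome X, Col4a5 was lower in GFP- cells and Col4a6 did not pass. Col4a5 gave 8.55 and 8.46 on the GFP+ arrays and 7.94 and 7.63 on the GFP- arrays. Its 2 GFP- values were both below the GFP+ values, and the difference was -0.72 (SE 0.13, adjusted p = 0.0466), 1.65-fold in favour of GFP+ cells. Its other probe set gave -0.14 (adjusted p = 0.326). Col4a6 gave 6.89 and 6.61 on the GFP+ arrays and 6.10 and 6.21 on the GFP- arrays, again without overlap, but its difference of -0.60 (SE 0.12, interval -0.92 to -0.28) had an adjusted p of 0.0617. Its other probe set gave -0.13 (adjusted p = 0.461). Col4a3, a chain of the mature kidney filter, gave 0.22 (adjusted p = 0.229). Col18a1, a collagen that carries heparan sulphate and the source of endostatin, was bright on every array, at 11.02 and 11.03 on the GFP+ arrays and 10.86 and 10.89 on the GFP- arrays, with a difference of -0.15 (adjusted p = 0.271). Without GFP+ replicate 1 Col4a1 passed (adjusted p = 0.0489) and Col4a2 and Col4a5 did not (0.0528 and 0.164). Without GFP+ replicate 2 both Col4a1 and Col4a2 passed, Col4a5 did not (0.0936), and Col4a6 did (0.0455).

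Of the 4 nidogens and proteoglycans the 2 nidogens were higher in GFP- cells, and the median of the 4 was 0.29. Nid1 gave 7.97 and 7.84 on the GFP+ arrays and 8.47 and 8.59 on the GFP- arrays. The groups did not overlap, and Nid1 was 1.54-fold higher (0.62, SE 0.09, adjusted p = 0.0328). Its 2 other probe sets gave 0.45 (adjusted p = 0.281) and -0.17 (0.253). Nid2, the second nidogen, gave 8.60 and 8.59 on the GFP+ arrays and 9.15 and 9.23 on the GFP- arrays, 1.51-fold higher (0.60, SE 0.08, adjusted p = 0.0251). Hspg2, which encodes perlecan, gave 8.90 and 9.07 on the GFP+ arrays and 8.95 and 9.01 on the GFP- arrays. These overlapped, with a difference of -0.01 (interval -0.25 to 0.24). A second, dimmer probe set of Hspg2 gave 7.31 and 7.36 on the GFP+ arrays and 7.83 and 7.98 on the GFP- arrays, which did pass (0.57, SE 0.09, adjusted p = 0.0376), so the probe sets of perlecan disagree. Agrn, which encodes agrin, gave 11.02 and 10.97 on the GFP+ arrays and 10.68 and 10.78 on the GFP- arrays. Its difference of -0.26 (interval -0.47 to -0.06) did not pass (adjusted p = 0.124). Both nidogen calls were lost without GFP+ replicate 1 (0.0854 for Nid1, 0.0942 for Nid2) and without GFP+ replicate 2 (0.0764 and 0.0629).

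Among 7 adhesive glycoproteins and matrix partners 1 rose and 3 fell in the GFP- population, with a median of 0.09. Smoc1 and Smoc2, of the SPARC family of calcium-binding proteins, differed in opposite directions. Smoc1, a basement membrane protein, gave 10.01 and 9.96 on the GFP+ arrays and 8.68 and 8.64 on the GFP- arrays. The values within each group lay close to each other, and Smoc1 was 2.52-fold lower in GFP- cells (difference -1.33, SE 0.07, interval -1.52 to -1.14, adjusted p = 0.00638), the smallest adjusted p of the 39 genes. Its closest relative Smoc2 gave 3.96 and 4.0 on the GFP+ arrays and 4.60 and 4.81 on the GFP- arrays. It was higher in GFP- cells (0.72, SE 0.10, adjusted p = 0.0298), but all 4 values lay under the median of their arrays, and the other probe set gave 0.20 (adjusted p = 0.303). Sparc, which binds collagen, gave 11.32 and 11.62 on the GFP+ arrays and 12.04 and 12.34 on the GFP- arrays. The groups did not overlap, but the 2 arrays of each group lay about 0.3 apart, and the difference of 0.72 (SE 0.16, interval 0.30 to 1.14) had an adjusted p of 0.0703. Its 2 other probe sets gave 0.84 (adjusted p = 0.0609) and -0.06 (0.853).

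Fn1, which encodes fibronectin, the ligand of several integrins, gave 10.77 and 10.78 on the GFP+ arrays and 10.36 and 10.35 on the GFP- arrays. It was lower in GFP- cells by a small amount (difference -0.42, SE 0.07, adjusted p = 0.0424, 1.33-fold in favour of GFP+ cells). A second probe set gave 8.31 and 7.43 on the GFP+ arrays and 6.32 and 6.62 on the GFP- arrays, a difference of -1.40 with a larger error (SE 0.32, adjusted p = 0.0754). Npnt, which encodes nephronectin, an integrin ligand of epithelial basement membranes, gave 6.78 and 6.58 on the GFP+ arrays and 6.13 and 5.98 on the GFP- arrays. It was lower in GFP- cells (-0.62, SE 0.11, adjusted p = 0.0458), while its other probe sets gave -0.11, -0.72 (adjusted p = 0.0667), 0.11 and -0.05. Vtn, which encodes vitronectin, was dim and its groups overlapped (4.60 and 4.23 against 4.58 and 4.44, difference 0.10, interval -0.30 to 0.49). Serpinh1, the chaperone that procollagen needs in the endoplasmic reticulum, gave 0.09 (interval -0.11 to 0.28, adjusted p = 0.516). Without GFP+ replicate 1 only Smoc1 of these calls passed (adjusted p = 0.0367), with Fn1 and Npnt at 0.139 each and Smoc2 at 0.112. Without GFP+ replicate 2 the values were 0.0193 for Smoc1, 0.0978 for Fn1, 0.0566 for Npnt and 0.0683 for Smoc2.

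None of the 3 genes of the Fraser complex, which anchors embryonic epithelia to the tissue beneath, was called by limma, and 1 had an unadjusted p under 0.05. This was Fras1, at 9.15 and 9.17 on the GFP+ arrays and 8.98 and 8.92 on the GFP- arrays (-0.22, SE 0.07, adjusted p = 0.155). A second probe set of Fras1 gave 7.04 and 6.78 on the GFP+ arrays and 5.54 and 5.93 on the GFP- arrays and did pass (-1.17, SE 0.17, adjusted p = 0.0336). Frem2 was bright in both populations (11.47 and 11.39 against 11.25 and 11.31), with a difference of -0.15 (interval -0.35 to 0.05). Frem1 gave 5.49 and 5.42 on the GFP+ arrays and 5.49 and 5.41 on the GFP- arrays, with an interval of -0.21 to 0.20.

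Among the 12 receptors 3 rose and 1 fell in GFP- cells, and 8 did not pass. The median difference was 0.25, against 0.09 for the 27 matrix genes. Among the 7 integrin alpha subunits only Itga1 was called. All 7 differences were above 0 (median 0.26), as were those of 11262 of all 18194 genes. Itga1, a collagen-binding subunit, gave 3.22 and 3.37 on the GFP+ arrays and 4.16 and 3.97 on the GFP- arrays. It was higher in GFP- cells (0.77, SE 0.11, adjusted p = 0.0299), but it was among the dimmest of the list, with all values under the array medians. The other probe set gave 0.61 (adjusted p = 0.0659).

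Itga6, the alpha subunit of the main laminin receptors of epithelia and stem cells, gave 10.35 and 10.30 on the GFP+ arrays and 10.65 and 10.73 on the GFP- arrays. There was no overlap, but the difference of 0.37 (SE 0.08, interval 0.17 to 0.57) had an adjusted p of 0.0631. Its other probe set gave 0.13. Itgav, the alpha subunit shared by the receptors for vitronectin and fibronectin, gave 9.86 and 9.81 on the GFP+ arrays and 10.15 and 10.04 on the GFP- arrays (0.26, SE 0.08, adjusted p = 0.136), and its 5 probe sets ran from -0.35 to 0.47. Itga5, the classical partner of Itgb1 in the fibronectin receptor, gave values close to each other, 6.10 and 6.09 against 6.11 and 6.12 (0.01, interval -0.17 to 0.20). Other probe sets of Itga5 gave -0.45 (groups without overlap, limma adjusted p = 0.143), -0.01 and -0.02. Itga3, a laminin-binding subunit, gave 0.24 (adjusted p = 0.470), with groups that overlapped (7.32 and 7.68 against 7.57 and 7.91). Itga7, a laminin receptor of muscle, gave 5.16 and 5.10 on the GFP+ arrays and 5.55 and 5.27 on the GFP- arrays, a difference of 0.28 (adjusted p = 0.220), and Itga2, a collagen receptor, 0.16 (0.412).

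**Figure D3:**
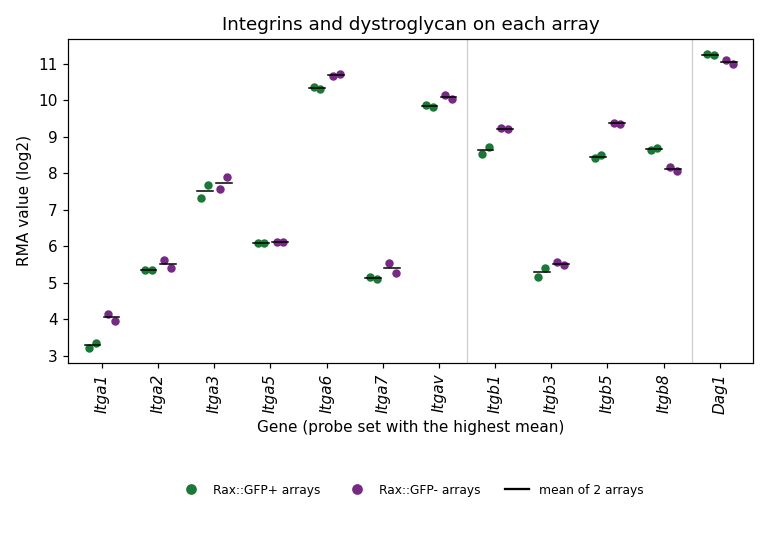
Log2 RMA values (vertical axis) of the 7 integrin alpha subunits, 4 beta subunits and dystroglycan (horizontal axis) on each array. Green points are the 2 GFP+ arrays, purple points the 2 GFP- arrays and black lines the group means; Itgb5 has the purple points above the green ones and Itgb8 below them.

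Of the 4 beta subunits Itgb5 and Itgb1 were higher in GFP- cells and Itgb8 was lower. Itgb5, which pairs with the alpha v subunit, gave 8.40 and 8.50 on the GFP+ arrays and 9.38 and 9.36 on the GFP- arrays. It was 1.89-fold higher in GFP- cells (0.92, SE 0.08, adjusted p = 0.0117), and all 4 of its probe sets passed, from 0.72 to 0.92. Itgb8, another partner of the alpha v subunit and known in neuroepithelium for releasing active TGF-beta, gave 8.65 and 8.70 on the GFP+ arrays and 8.16 and 8.06 on the GFP- arrays. It was lower in GFP- cells (-0.56, SE 0.08, adjusted p = 0.0308), 1.48-fold in favour of GFP+ cells. Thus 2 partners of the same alpha subunit differed in opposite directions, Itgb8 by its only probe set. Neither overlapped between the groups, where 38.4% of all genes lay apart as higher and 21.7% as lower.

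Itgb1, the beta subunit of most laminin and collagen receptors, gave 8.53 and 8.72 on the GFP+ arrays and 9.23 and 9.20 on the GFP- arrays. It was 1.51-fold higher in GFP- cells (0.59, SE 0.09, adjusted p = 0.0397). Of its 5 other probe sets 1 passed (0.72, adjusted p = 0.0413), 1 gave 0.55 (0.0860) and 3 dim ones gave 0.02, -0.10 and 0.12. Itgb3, the beta subunit of the classical vitronectin receptor, gave 5.17 and 5.40 on the GFP+ arrays and 5.56 and 5.49 on the GFP- arrays, a difference of 0.24 that did not pass (adjusted p = 0.248). Dag1, which encodes both subunits of dystroglycan, gave 11.28 and 11.22 on the GFP+ arrays and 11.10 and 11.00 on the GFP- arrays. The difference was -0.20 (interval -0.41 to 0.00, adjusted p = 0.194), and all 4 of its probe sets were below 0. Without GFP+ replicate 1 no receptor passed, with adjusted p-values of 0.0523 for Itgb5, 0.100 for Itgb8, 0.105 for Itga1 and 0.112 for Itgb1. Without GFP+ replicate 2 Itgb5 (0.0257) and Itgb1 (0.0435) passed, and Itga1 (0.0508) and Itgb8 (0.0765) did not.

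Counted by probe set, 19 of the 90 were higher in GFP- cells and 6 were lower, where 3.64% and 3.82% of all probe sets were. The probe sets of a gene read different parts of its transcripts and share its 4 samples, so they are not replicates. For Col4a1, Lamc1 and Itgb5 every probe set was called in the same direction. The probe sets of Lama5, Lamb1, Col18a1, Nid1, Hspg2, Npnt, Sparc, Itga5, Itgav and Itgb1 did not all have the same sign, and for Hspg2 and Fras1 only a probe set of lower mean was called.

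**Figure D4:**
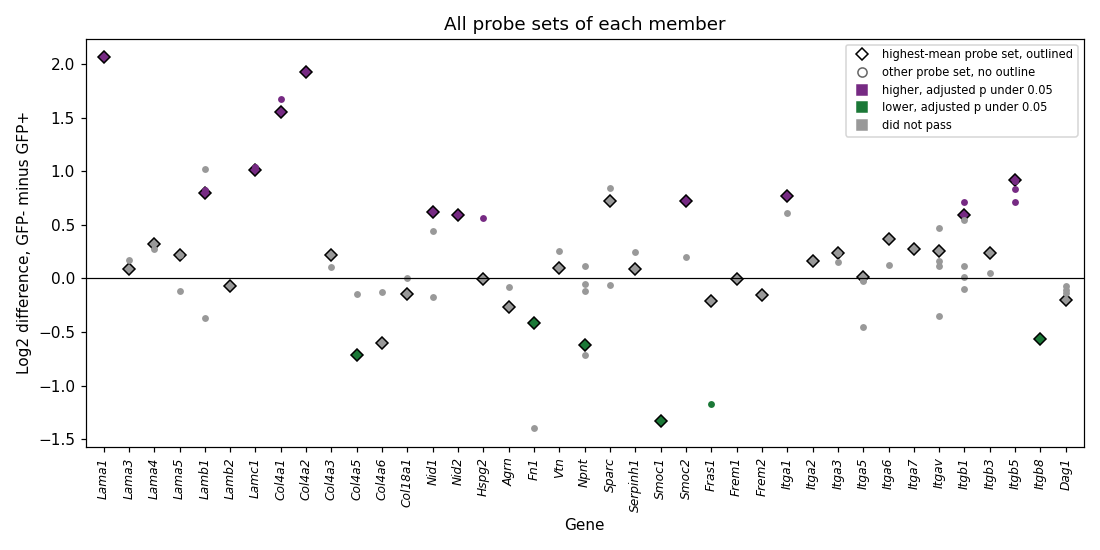
Log2 difference (GFP- minus GFP+, vertical axis) of all 90 probe sets of the 39 genes (horizontal axis). Outlined diamonds are the probe sets of highest mean, circles the others, purple and green points passed as higher and lower in GFP- cells and grey points did not pass; the 4 probe sets of Itgb5 lie close together, while those of Lamb1 and Fn1 are spread.

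Of 121 measured genes in 7 further lists (other chains and integrins, small matrix proteins, adhesion machinery, collagen enzymes, the dystroglycan complex, proteases and other receptors) 7 were higher and 6 lower in GFP- cells, and the median was 0.03. The shares over all genes were 5.40% higher and 2.63% lower. Of 25 other basement membrane chains, relatives and integrins only Thbs1, a thrombospondin, was called, at 8.44 and 8.85 on the GFP+ arrays and 7.15 and 7.22 on the GFP- arrays (-1.46, adjusted p = 0.0185). Ntn1, the laminin-related guidance protein netrin, was the brightest that did not pass (-0.10, adjusted p = 0.700).

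Of 14 fibulins, fibrillins and small matrix proteins 4 were lower. Fbn2, a microfibril protein, stood at 11.49 and 11.46 on the GFP+ arrays and 10.19 and 10.03 on the GFP- arrays (-1.37, adjusted p = 0.00785). Spon1, a secreted protein of the floor plate, stood at 9.92 and 9.95 against 8.62 and 8.70 (-1.28, adjusted p = 0.00694). The others were Fbln1 (-0.59) and Ltbp1 (-0.51), a fibulin and a binding protein of latent TGF-beta, while the proteoglycan gene Spock1 was higher (1.0, adjusted p = 0.0109).

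Inside the cell, 1 of 21 genes of the adhesion machinery passed, Tns3, which encodes a tensin (0.54, adjusted p = 0.0313). Actn4 and Fermt2, which encode an alpha-actinin and a kindlin, gave 0.04 and -0.11. Of 15 enzymes and chaperones of collagen folding and crosslinking 2 were higher, the lysyl hydroxylase gene Plod2 (0.87, adjusted p = 0.0338) and Crtap (0.44, adjusted p = 0.0434), whose product takes part in prolyl hydroxylation of collagen. The abundant Ppib and P4hb gave 0.18 and 0.10. Of 12 genes of dystroglycan glycosylation and its complex Sgce, a sarcoglycan, was lower (-0.51, adjusted p = 0.0299). Of 17 proteases and inhibitors the serine protease gene Htra1 was higher (1.22, adjusted p = 0.0212), while Mmp2 and Timp2 gave -0.11 and -0.01. Of 17 other matrix receptors the netrin receptor gene Unc5b (1.05, adjusted p = 0.0142) and the syndecan gene Sdc4 (0.77, adjusted p = 0.0197) were higher. Without GFP+ replicate 1 these 7 lists held 2 higher and 3 lower genes, and without GFP+ replicate 2 they held 4 and 3.

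**Figure D5:**
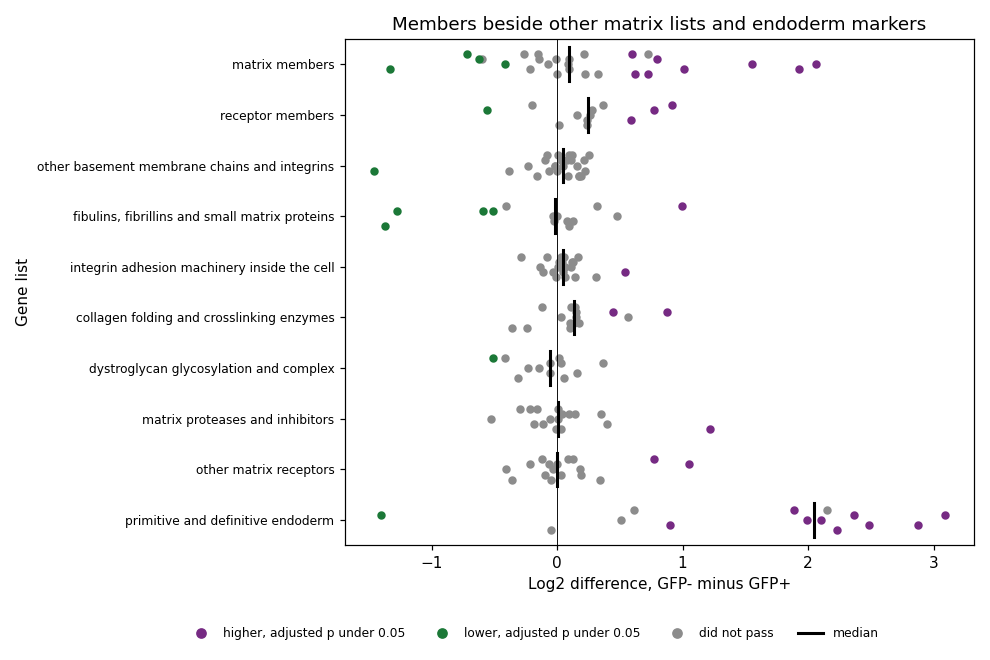
Log2 difference (GFP- minus GFP+, horizontal axis) of each gene in the matrix and receptor lists, in the 7 further pathway lists and among the 14 endoderm markers (vertical axis). Each point is a gene at its probe set of highest mean, coloured by call, and black bars are medians; the bars of the pathway lists lie near 0 and that of the endoderm markers at 2.05.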

How the data were processed

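RNA of sorted Rax::GFP+ and Rax::GFP- cells was hybridized to Affymetrix mouse arrays, with 2 samples a group. The methods of the study call these biological duplicates, prepared from pooled aggregates in each experiment. The labels do not say whether the samples came from separate cultures. The p-values set each difference against the spread between these samples. The deposited values are log2 intensities that the authors made by RMA (the processing notes name R 2.13.0), which compresses small differences of dim probe sets; background correction and quantile normalization were done by the authors and not repeated. Precision is limited by the 4 arrays. Array medians ran from 5.84 to 5.89, and values from 2.20 to 15.1.

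Probe sets were named from the platform annotation. Of 45101 probe sets 34958 had 1 symbol, 932 several and 9211 none, and those with several or none were left unnamed. No symbol changed on matching to the RefSeq table of GRCm38.p6. Differences were fitted with limma 3.58.1 in R 4.3.3 (2 groups, no covariate, 2 residual degrees of freedom and 2.52 prior ones), on all probe sets, 64 control ones included, with Benjamini-Hochberg adjustment and 0.05 as threshold. Intervals are 95% and unadjusted. The fit was checked on simulated data. A gene was represented by its probe set of highest mean. Every member was named; arrays were given singly for members past the threshold and, in each role group, for those of largest difference that did not pass. Some members of smaller difference, such as Hspg2, Vtn, Frem1 and Itga5, were also given array by array, a choice made after their values were seen. Of each other list up to 4 genes past the threshold, by size of difference, and up to 2 of highest mean were eligible to be named. Cer1 and Thbd were named for their low level after their values were seen. The members, the lists and the tests were chosen with earlier results of these data known. In all 13 alternatives were run. Promoters were the 250 bases before RefSeq starts.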

Additional observations from a re-analysis of the deposited data

How the results depend on the processing

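The deposited table holds RMA values only, so background correction and summarization could not be varied, and dim probe sets (mean under log2 5, as for Smoc2 and Itga1) carry little signal over background. Higher and lower refer to GFP- cells. With all arrays, 8 matrix genes were higher and 4 lower, 3 receptors were higher and 1 lower, and 19 probe sets were higher and 6 lower. With the replicate number as a block (the replicate block), each of these counts was 0: limma called 0 of all probe sets, with 11019 at an unadjusted p under 0.05, 23 of the 39 genes among them. The labels do not say that the numbers pair the samples, and the differences between replicates of the 2 groups correlated at r = -0.05 across probe sets. Of the 11 members called higher, 5 had replicate 2 above replicate 1 in both groups and 0 had the reverse. For the other 28 members these numbers were 5 and 9, for the 14 endoderm markers 9 and 3, and for all 18194 genes 5679 and 4250. Whether the samples are paired was not tested. Leaving out each array in turn gave 0 to 5 matrix genes higher and 0 to 2 lower, 0 to 2 receptors higher and 0 lower, and 0 to 15 probe sets higher and 0 to 4 lower. Without either GFP- array limma called 0 probe sets, so that all of these counts were 0, with 7704 and 7697 at an unadjusted p under 0.05 (20 and 22 of the 39 genes). The receptor counts were also 0 without GFP+ replicate 1, and the count of lower receptors without GFP+ replicate 2. Of the 16 calls 2 were kept without GFP+ replicate 1 and 8 without GFP+ replicate 2. With arrays centred on their median, 1 matrix gene and 3 probe sets were lower. With an intensity trend in the variance, 5 receptors were higher and 2 lower, and 11 probe sets were lower; this kept all 16 calls and added Col4a6, Agrn, Sparc, Itga6, Itgav and Dag1. The causes of these moves were not tested. Storey's q-value kept all 16 calls and added Col4a6, Sparc and Itga6. Quantile normalization kept all 16 and added Col4a6, and array weights and leaving out probe sets with the x suffix changed no call. Leaving out dim probe sets kept the 14 calls still measured and added Col4a6 and Itga6. Averaging the probe sets of each gene lost Nid1 and Itgb1 and gained Col4a6 and Fras1.

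Only differences near 0 changed sign, none of them called. Hspg2 gave 0.033 with centred arrays, 0.28 as the mean of its probe sets, and -0.092 to 0.079 with an array left out. Frem1 gave 0.035 with centred arrays, 0.018 after quantile normalization and -0.040 to 0.032 with an array left out. Vtn gave -0.088 to 0.28 with an array left out, and Itga5 -0.12 as the mean of its probe sets.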
